A study of Mus musculus with 4 samples.

Results

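The antioxidant and glutathione synthesis genes of mouse granulosa cells (GCs) were examined, a set of 33 named genes among the 55385 of the count table. They were taken by symbol from a list of these pathways, and all 33 had a row in the table and passed the filter on low counts. The set holds 3 superoxide dismutases, 6 enzymes that remove peroxides (catalase and 5 glutathione peroxidases), 6 peroxiredoxins with the sulfiredoxin that repairs them, 5 genes of the thioredoxin system, 5 of glutathione supply, 2 glutaredoxins and 5 of the NRF2 axis.

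Bulk RNA sequencing had been done on GCs from preantral follicles of Kunming mice aged 12 to 14 days, after 6 days of culture of single follicles in medium with FSH, fetuin, albumin and a supplement of insulin, transferrin and selenium. Follicles of the NT4 group were cultured with neurotrophin-4 (NT-4), a ligand of the receptor TRKB, and those of the Control group without it, so that NT-4 was the only labelled difference. Each group held 2 libraries, which the study describes as samples from independent experiments. The GCs were those left after oocytes had been removed from the cumulus complexes, and how many follicles went into a library is not given in the sources used here.

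Superoxide dismutases turn superoxide into hydrogen peroxide, which catalase, glutathione peroxidases and peroxiredoxins then reduce to water. The peroxidases draw their electrons from glutathione or from thioredoxin, which glutathione reductase and the thioredoxin reductases recharge with NADPH. NRF2, the product of Nfe2l2, is held back by KEAP1 and drives many of these genes through antioxidant response elements when electrophiles or oxidants rise. In the follicle, steroid synthesis by GCs is a source of reactive oxygen, and GCs are known to supply the oocyte with glutathione.

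The libraries held totals of 49520092 to 78704020 counts. Low counts piled up at multiples of 4, so 1 read pair was taken to add 4 counts, and the libraries then held about 12380023 to 19676005 read pairs. A count of 0 would allow up to 3 read pairs, or 0.152 to 0.242 CPM (counts relative to a library's total), for counting error only, and no member was near that floor. The granulosa label was met by its markers, with 10 of 10 detected and a summed level of 9532 to 14773 CPM led by Inha. Macrophage markers summed to 1.38 to 3.15 CPM with Cd163 at 0, erythroid markers to 3.23 to 5.67 CPM with Slc4a1 at 0, and surface epithelium markers to 1.35 to 1.89 CPM with Krt19 and Upk1b at 0. Oocyte markers summed to 66.3 to 99.8 CPM and endothelial markers to 19.5 to 28.7 CPM. Theca and stroma markers, led by Col3a1, summed to 959 and 995 CPM in the Control libraries against 1385 and 1188 CPM in the NT4 libraries, and 8 of 8 had a log2 fold change above 0. In bulk samples, fewer cells of a type and less RNA per cell cannot be told apart.

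Many members were abundant transcripts. Scaled by the length of the union of their exons and given as TPM (computed from the counts), 17 of 33 lay in the top 10% of the 19259 genes tested, and 13 did with the median length of protein-coding transcripts instead. The highest by exon union were Gpx4 (615 TPM), Txn1 (604 TPM), Prdx1 (590 TPM), Gpx7 (463 TPM) and Gpx3 (374 TPM). At the other end by exon union stood Slc7a11 (4.55 TPM), Glrx2 (5.83 TPM) and Nqo1 (6.81 TPM). The order between genes depended on the length used, with Prdx1 at 1438 TPM and Sod1 at 950 TPM against 290 TPM when coding transcripts set the length. On that scale Glrx2 was at 29.3 TPM, and the lowest members were Nqo1 (3.61 TPM), Slc7a11 (5.77 TPM) and Sod3 (7.84 TPM). Members also varied little between libraries. The highest library exceeded the lowest by a median factor of 1.24 over the members, against 1.31 over the 14332 genes with a mean of at least 1 CPM. A factor of 1.5 was exceeded by 4 members (12.1%) against 29.6% of those genes. Those genes were not matched to the members on level, and the difference was not tested.

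**Figure D1:**
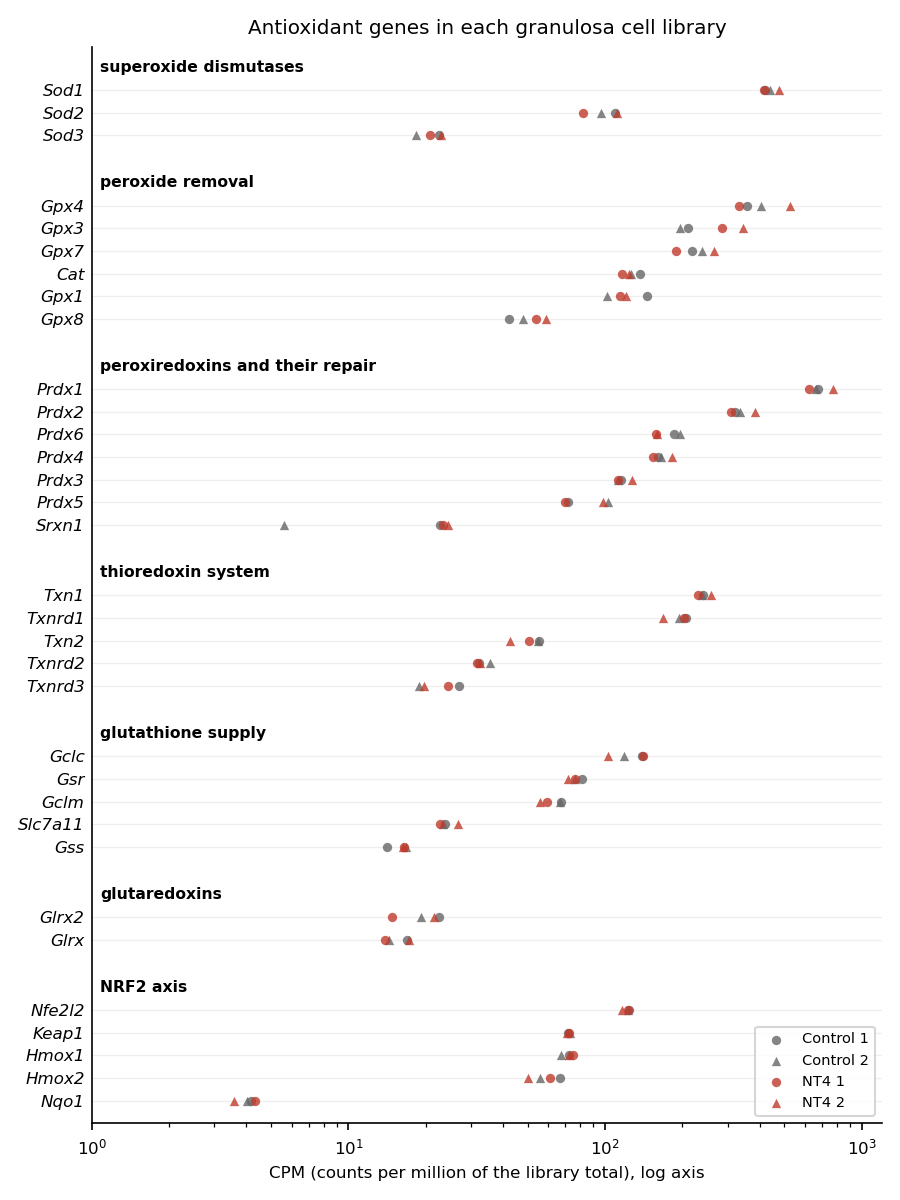
Level of each member in each library in CPM of the library total, on a log axis, with members grouped by role and sorted by mean level; grey marks Control, red marks NT4, circles replicate 1 and triangles replicate 2. Points of a gene mostly sit on top of each other, with Srxn1 in Control 2 (5.61 CPM) as the point farthest from the rest of its row.

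The comparison asked which of these genes differed between GCs of follicles grown with and without NT-4. By edgeR's quasi-likelihood test with Benjamini-Hochberg adjustment over all 19259 genes tested, 0 of 33 members passed an adjusted p of 0.05, where the share over all genes was 0%. Each member's adjusted p was 0.9999, and the smallest over all genes was 0.13 in edgeR's quasi-likelihood test. The unadjusted p was under 0.05 for 1 member, Gpx3, where 1.99% of all genes had one (1.05% higher and 0.935% lower in NT4), and after adjustment 0 members passed in the DESeq2 Wald test, edgeR's exact test and limma voom, which passed 65, 59 and 0 of the 19259 genes. No member met the criterion of the study's methods, a fold of 2 with an unadjusted p under 0.05, which 1.08% of all genes met.

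The members had no common direction. Their median log2 fold change (NT4 over Control) was 0.0073, against 0.0045 over all genes tested, with 17 members above 0 and 16 below, and 51% of all genes above 0. The median without NT4 1 was 0.11, with 21 members above 0, and without NT4 2 it was −0.053, with 11 above 0. NT4 1 was the lowest library for 16 members (26.8% of the 14332 genes) and NT4 2 the highest for 15 (27.4% of those genes). NT4 2 was also the lowest for 9 members (32.5% of those genes), and NT4 1 the highest for 3 (26.5%). The difference of these counts from the shares over all genes was not tested. The summed granulosa markers were also lowest in NT4 1 (9532 CPM) and highest in NT4 2 (14773 CPM), with 10920 and 13553 CPM in the Control libraries. Inha led that sum, at 5855 CPM in NT4 1 and 8687 CPM in NT4 2. Not all markers followed it. Amh (393 and 89.6 CPM) and Amhr2 (268 and 200 CPM) were highest in NT4 1 and lowest in NT4 2. The part of the granulosa markers in the members' values was not tested. The 95% interval of the fold change lay inside a fold of 2 either way for 31 members and inside a fold of 1.5 for 25. The exceptions at a fold of 2 were Srxn1 and Gpx3. The shares of all genes with such intervals were not computed, so these counts are no result about the members.

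In 9 of 33 members (27.3%) the groups did not overlap, against 26.6% of all genes tested. Gpx3, Gpx8 and Srxn1 were higher in both NT4 libraries, and Prdx6, Gclm, Txn2, Cat, Gsr and Nfe2l2 were lower in both. With TMM-scaled CPM the count was again 9, with Hmox1 higher in both and Cat overlapping. A share this close to that of all genes is no result about the members.

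**Figure D2:**
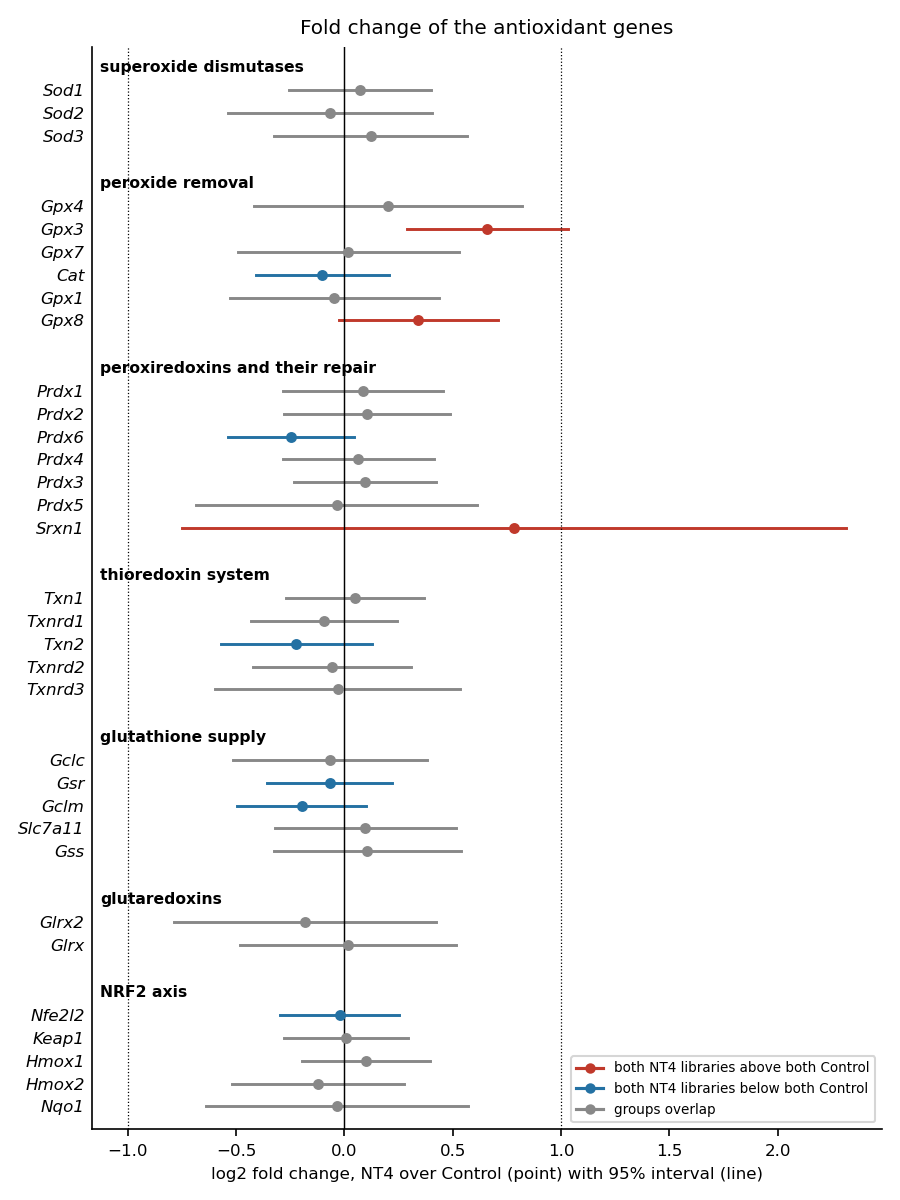
Log2 fold change of each member, NT4 over Control, from edgeR's quasi-likelihood fit, with its 95% interval as a line; dotted lines mark a fold of 2. Red marks members higher in both NT4 libraries than in both Control libraries, blue those lower in both, and grey those whose groups overlap on CPM of the library total. The interval of Gpx3 (0.29 to 1.03) lies above 0, and that of Srxn1 (−0.75 to 2.32) is the widest.

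Among the enzymes that remove peroxides, Gpx3 was the member farthest from its replicate spread. Gpx3 (ENSMUSG00000018339, GRCm38 chromosome 11, 54902453 to 54910377, plus strand) encodes the secreted, plasma-type glutathione peroxidase, a selenoprotein that reduces peroxides outside the cell. Its level was 209.8 CPM in Control 1 and 196 CPM in Control 2, and then 285 CPM in NT4 1 and 346 CPM in NT4 2. Control averaged 203 ± 9.67 CPM and NT4 averaged 316 ± 43.0 CPM (SD, n = 2), so that both NT4 libraries lay well above both Control libraries. The log2 fold change was 0.66 (SE 0.15, 95% interval 0.29 to 1.03), and edgeR gave an unadjusted p of 0.00561 that adjustment took to 0.9999. Leaving out any 1 library left it between 0.49 and 0.80, and its lowest adjusted p over 14 alternatives was 0.0746, in the DESeq2 Wald test, with 1 as the highest.

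The summed theca and stroma markers, given above, were also higher in both NT4 libraries. Macrophage and erythroid markers were at a few CPM in all 4 libraries. The part of these cell types in the values of Gpx3 was not tested.

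Gpx8, an endoplasmic reticulum peroxidase with cysteine in place of selenocysteine, was at 42.3 and 47.7 CPM in the Control libraries and at 53.6 and 58.7 CPM in the NT4 libraries. The groups did not overlap, but the interval of its log2 fold change of 0.34 (SE 0.15) ran from −0.027 to 0.71. Gpx7, its relative in the same compartment, had Control levels of 218 and 238 CPM and NT4 levels of 188 and 266 CPM. Its NT4 libraries thus lay on either side of the Control libraries, for a log2 fold change of 0.019 (SE 0.20). Values by library of Gpx8, Gpx7 and a few members below were chosen after they were seen.

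Gpx4, the selenoprotein that reduces lipid peroxides in membranes, had the highest mean CPM of the peroxide-removing genes. It was at 357 and 404 CPM in Control and at 333 and 527 CPM in NT4, so NT4 2 stood above the rest and NT4 1 below. The log2 fold change came to 0.20 (SE 0.25) and turned to −0.19 when NT4 2 was left out. The pseudogene Gpx4-ps2, a near-identical copy that may share reads with Gpx4, followed the same order at 58.5 and 58.6 CPM in Control and 41.8 and 74.9 CPM in NT4, and with its counts added the log2 fold change of Gpx4 was 0.18. Gpx1, the abundant cytosolic enzyme, was at −0.046 (SE 0.19), with Control 1 (146 CPM) and Control 2 (101 CPM) as its extremes. Cat, the peroxisomal catalase, was at −0.10 (SE 0.12).

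The shares of the glutathione peroxidase transcripts restate the difference in Gpx3, which did not pass after adjustment, and were not tested. On the length-scaled level (exon union), Gpx3 made up 18.3% and 16.8% of the 5 genes' sum in the Control libraries and 25.1% and 22.6% in the NT4 libraries. With coding transcript lengths the shares were 22.5% and 20.9% against 30.5% and 27.6%. Gpx4 held the largest share by exon union in each library, from 30.8% to 36.5%.

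**Figure D3:**
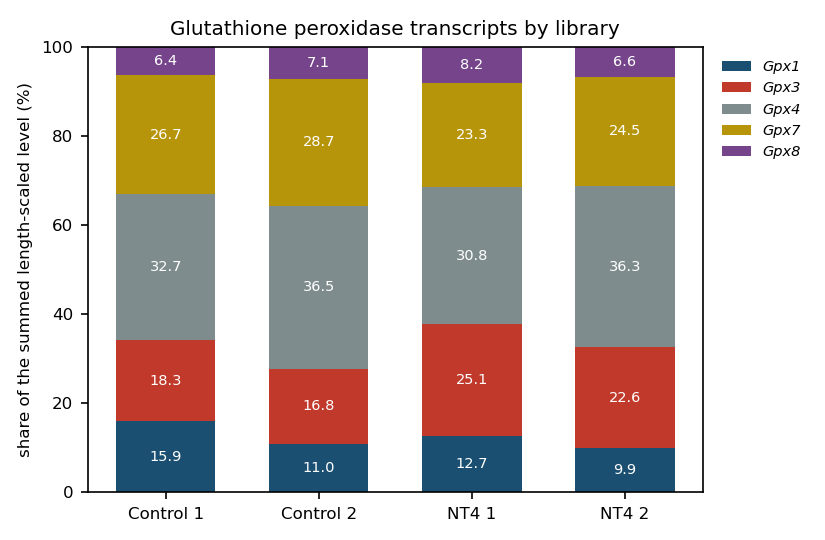
Share of each glutathione peroxidase gene in the summed length-scaled level (exon union) of the 5 genes, in percent, 1 bar per library. The Gpx3 segment takes 18.3% and 16.8% in the Control libraries and 25.1% and 22.6% in the NT4 libraries.

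The superoxide dismutases did not part by group. Sod1, the cytosolic copper and zinc enzyme, was at 421 and 441 CPM in Control and 415 and 477 CPM in NT4. Its groups overlapped, at a log2 fold change of 0.072 (SE 0.13). It made up 86.2% to 88.4% of the length-scaled sum of the family by exon union and 94.2% to 95.3% with coding transcript lengths. Sod3, the extracellular enzyme, was at 22.5 and 18.3 CPM in Control and 20.8 and 22.9 CPM in NT4 (log2 fold change 0.12, SE 0.18). Sod2, the mitochondrial manganese enzyme, was lowest in NT4 1 (82.2 CPM) and highest in NT4 2 (111 CPM), with a log2 fold change of −0.067 (SE 0.19).

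Peroxiredoxins are thiol peroxidases recharged by thioredoxin, and Prdx1 had the highest CPM of all members. Prdx1, a cytosolic enzyme, was at 673 and 666 CPM in Control and 624 and 774 CPM in NT4, so that the Control libraries lay between the NT4 libraries. The log2 fold change of Prdx1 was 0.086 (SE 0.15, interval −0.29 to 0.46). Prdx2 (0.11, SE 0.15), Prdx3 of the mitochondria (0.095, SE 0.13) and Prdx4 of the endoplasmic reticulum (0.065, SE 0.14) had the same order of libraries in one respect, with NT4 2 highest and NT4 1 lowest.

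Prdx6, which reduces phospholipid peroxides with electrons from glutathione, ran the other way. It was at 186 and 196 CPM in Control and at 157 and 160 CPM in NT4. Both NT4 libraries lay below both Control libraries, with group means of 191 ± 6.8 and 159 ± 1.75 CPM (SD, n = 2). The log2 fold change was −0.25 (SE 0.11, interval −0.54 to 0.045), with an unadjusted p of 0.0825 in edgeR's test, and it was between −0.30 and −0.19 with any 1 library left out. Prdx5 was at 71.5 and 103 CPM in Control and 69.5 and 98.2 CPM in NT4, so its 4 libraries paired by replicate number and not by group. Prdx5 overlaps Trmt112 on the opposite strand, as Prdx2 does Junb and Rnaseh2a and Keap1 does Gm16754, and whether counting used strand is not stated.

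Srxn1 encodes sulfiredoxin, which restores peroxiredoxins that peroxide has over-oxidized. It had the widest spread of all members as a ratio of highest to lowest library (4.33). It was at 22.7 CPM in Control 1, 5.61 CPM in Control 2, 23.3 CPM in NT4 1 and 24.3 CPM in NT4 2. The low value of Control 2 rested on 414 counts, or about 104 read pairs, against 1122 counts in Control 1, so it lay far above the floor of 3 read pairs. The log2 fold change of 0.78 (SE 0.61) came from that library, since it was 0.11 without Control 2 and 2.09 without Control 1. No other gene of GENCODE M21 shares exon bases with Srxn1, and what set Control 2 apart was not tested. Prdx1, which encodes a protein that sulfiredoxin repairs, was not low in that library (666 CPM, against 673 CPM in Control 1).

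**Figure D4:**
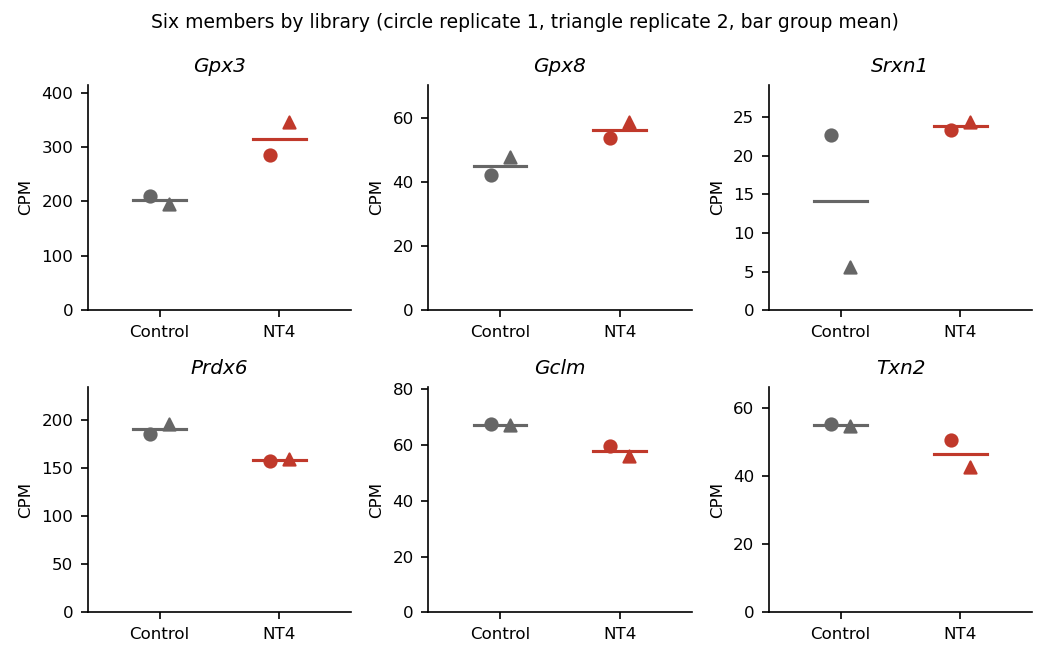
CPM of the library total for Gpx3, Gpx8, Srxn1, Prdx6, Gclm and Txn2 in each library, with circles for replicate 1, triangles for replicate 2 and a bar for the group mean; each vertical axis starts at 0. Gpx3 and Gpx8 sit higher and Prdx6, Gclm and Txn2 lower in both NT4 libraries, while Srxn1 is low in Control 2 alone.

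In the thioredoxin system, the cytosolic and mitochondrial thioredoxins differed in their order of libraries. Txn1, the cytosolic thioredoxin, was at 241 and 238 CPM in Control and 229 and 259 CPM in NT4, a log2 fold change of 0.050 (SE 0.13). Txn2, the mitochondrial thioredoxin, was at 55.1 and 54.7 CPM in Control and at 50.4 and 42.5 CPM in NT4. Both NT4 libraries of Txn2 lay below both Control libraries, but its log2 fold change of −0.22 (SE 0.14) had an interval of −0.57 to 0.13. The reductases, which are selenoproteins, were at −0.095 for cytosolic Txnrd1 (SE 0.13), −0.057 for mitochondrial Txnrd2 (SE 0.15) and −0.031 for Txnrd3 (SE 0.22). Of the 6 selenoprotein genes among the members, Gpx3 alone had an interval that did not hold 0, and a test of its difference from the others was not run.

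Glutathione is made from cysteine, which Slc7a11 brings in as cystine, by glutamate-cysteine ligase (catalytic subunit Gclc, modifier subunit Gclm) and then by glutathione synthetase (Gss). Gclm was at 67.3 and 66.9 CPM in Control and at 59.5 and 55.9 CPM in NT4, lower in both NT4 libraries. The Control libraries differed little from each other, at 67.1 ± 0.26 CPM against 57.7 ± 2.52 CPM in NT4 (SD, n = 2). The log2 fold change was −0.20 (SE 0.12, interval −0.50 to 0.10), with an unadjusted p of 0.151 in edgeR's test. Gclm overlaps Gm17494 on the opposite strand, a transcript at 94.6 and 182 CPM in Control and 45.9 and 118 CPM in NT4, so its count is uncertain if counting did not use strand.

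Gclc, the catalytic partner, was at 139 and 119 CPM in Control and 140 and 103 CPM in NT4. The replicates numbered 1 were its higher libraries and those numbered 2 its lower ones, and the log2 fold change was −0.066 (SE 0.18). Gclc stood above Gclm per length of the exon union (87.5 against 26.1 TPM) and below it per coding transcript (50.9 against 86.7 TPM), so their order was not settled. Slc7a11 (0.097, SE 0.16), Gss (0.11, SE 0.17) and Gsr, the reductase that recycles oxidized glutathione (−0.067, SE 0.11), had intervals that held 0, and Gss overlaps Acss2 on the opposite strand. The glutaredoxins, which reduce proteins bound to glutathione, were at low levels by exon union (5.83 TPM for Glrx2 and 7.44 TPM for Glrx) and higher per coding transcript (29.3 and 16.3 TPM). Glrx2, the mitochondrial form, was at 22.6 and 19.2 CPM in Control and 14.7 and 21.5 CPM in NT4, with NT4 1 below the rest, and Glrx had a log2 fold change of 0.018 (SE 0.20).

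In the NRF2 axis, Nfe2l2, Keap1 and Hmox1 had narrow ranges over the 4 libraries. Nfe2l2, which encodes the factor itself, was at 124 and 122 CPM in Control and 122 and 117 CPM in NT4, a log2 fold change of −0.023 (SE 0.11, interval −0.30 to 0.25). Keap1, its inhibitor, had the narrowest range of all members as a ratio of highest to lowest library (1.03). It ran from 70.9 CPM in NT4 2 to 72.8 CPM in Control 2. Hmox1, the inducible heme oxygenase and a target of NRF2, was at 72.2 and 67.2 CPM in Control and 75 and 72.1 CPM in NT4. Control 1 lay just above NT4 2, so the groups overlapped, and its log2 fold change of 0.099 (SE 0.12) held its direction in all 14 alternatives. Hmox2, the constitutive form, ranged from 49.9 to 66.4 CPM, at a log2 fold change of −0.12 (SE 0.16), and shares exons with Cdip1 on the opposite strand. Nqo1, a quinone reductase often used as a readout of NRF2, was the lowest member in CPM, from 3.57 CPM in NT4 2 to 4.32 CPM in NT4 1, on 207 to 296 counts.

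The promoters of 5 members described above are shown, chosen after their values were seen. They are Gpx3 (the smallest unadjusted p), Gpx8 and Gclm (groups that did not overlap, at a share of members close to that of all genes), Srxn1 (the widest spread as a ratio) and Prdx1 (the highest CPM). Each is the 250 bases before the start that RefSeq gives on GRCm38.p6, 5′ to 3′ on the gene's strand. The GENCODE M21 bounds of a gene can begin further upstream, and the Gpx3 window lies wholly inside them, those of Gpx8, Srxn1 and Prdx1 in part. Gpx3 lies at chr11:54902604-54902853 (plus strand), Gpx8 at chr13:113046389-113046638 (minus), Gclm at chr3:122245307-122245556 (plus), Srxn1 at chr2:152105274-152105523 (plus) and Prdx1 at chr4:116685349-116685598 (plus). Capitals mark matches, on either strand, to the core of the antioxidant response element (TGACNNNGC) or to the heptamer bound by AP-1 (TGAGTCA).
Gpx3: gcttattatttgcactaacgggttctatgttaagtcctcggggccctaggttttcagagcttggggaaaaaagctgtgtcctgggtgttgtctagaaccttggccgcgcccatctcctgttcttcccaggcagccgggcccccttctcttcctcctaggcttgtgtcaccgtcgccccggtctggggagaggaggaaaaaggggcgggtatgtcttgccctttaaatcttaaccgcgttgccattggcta
Gpx8: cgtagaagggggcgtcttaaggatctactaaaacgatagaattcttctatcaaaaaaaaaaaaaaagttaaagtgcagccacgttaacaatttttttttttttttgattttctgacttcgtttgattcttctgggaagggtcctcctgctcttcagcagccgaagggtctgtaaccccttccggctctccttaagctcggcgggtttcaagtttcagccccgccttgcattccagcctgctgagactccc
Gclm: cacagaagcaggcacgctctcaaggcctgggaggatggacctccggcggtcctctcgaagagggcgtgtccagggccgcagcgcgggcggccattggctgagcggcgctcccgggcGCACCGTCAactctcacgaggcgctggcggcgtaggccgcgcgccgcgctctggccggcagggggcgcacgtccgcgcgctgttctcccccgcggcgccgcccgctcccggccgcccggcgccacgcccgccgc
Srxn1: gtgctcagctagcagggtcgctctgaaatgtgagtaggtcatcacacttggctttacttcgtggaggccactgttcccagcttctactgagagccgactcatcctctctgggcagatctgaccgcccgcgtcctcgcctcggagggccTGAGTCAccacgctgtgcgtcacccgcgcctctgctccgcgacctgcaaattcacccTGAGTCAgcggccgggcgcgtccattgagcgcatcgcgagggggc
Prdx1: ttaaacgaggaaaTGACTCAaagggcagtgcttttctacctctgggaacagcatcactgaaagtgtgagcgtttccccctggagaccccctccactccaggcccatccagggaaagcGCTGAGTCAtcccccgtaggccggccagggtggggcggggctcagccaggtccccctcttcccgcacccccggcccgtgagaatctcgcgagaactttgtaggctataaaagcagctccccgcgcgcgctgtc

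Gclm held 1 match to the response element core, from −134 to −126 relative to the RefSeq start. Prdx1 held 1 match to the core (−133 to −125), which overlapped a heptamer (−131 to −125), and another heptamer at −237 to −231. Srxn1 held heptamers at −102 to −96 and at −45 to −39 and no match to the core in this window. Looser forms of the core were not searched in any window. Neither sequence was found in the windows of Gpx3 and Gpx8, which for Gpx3 says nothing of the bases before its GENCODE start. Windows were found for 28 of 33 members (not for Sod3, Prdx6, Gclc, Gsr and Hmox1), and the core was in 5 of their 39 windows, those of Gclm, Nfe2l2, Prdx1, Sod1 and Txnrd1. The heptamer was in 4 of the 39, from Glrx, Prdx1 and Srxn1. The Glrx windows lay 1 base apart, so its 1 heptamer was counted in both. Of all 32851 windows of this length, 10.2% held the core and 4.46% the heptamer. A match is a description of the letters and not a binding site.

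Other genes of the same pathways were taken from a list of 88 symbols, of which 83 genes were tested. None passed the adjusted p in edgeR's test, 2 had an unadjusted p under 0.05, where 1.99% of all genes did, and 57 were above and 26 below 0 with a median log2 fold change of 0.060, where 51% of all genes were above 0 with a median of 0.0045. Of the 83, 9 were higher and 4 lower in both NT4 libraries than in both Control libraries, against 11.9% and 14.6% of all genes. Gstm1, a glutathione S-transferase that joins glutathione to electrophiles, was at 284 and 250 CPM in Control and at 421 and 378 CPM in NT4. Both NT4 libraries of Gstm1 lay above both Control libraries, at a log2 fold change of 0.60 (SE 0.12), and edgeR gave an unadjusted p of 0.00378 that adjustment took to 0.9999. It was between 0.53 and 0.68 with any 1 library left out, and reads of near-identical Gstm genes could have been split with it. The other was Gstp3, at 0.606 and 0.23 CPM in Control and 0.065 and 0.051 CPM in NT4. Its NT4 values were under the floor of 3 read pairs. Gstp3 alone of the 83 met the study's criterion, which 1.08% of all genes met.

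Of the glutathione S-transferases in that list, 23 were tested, 17 above and 6 below 0 with a median of 0.14 on the log2 scale, where 51% of all genes were above 0. The 4 methionine sulfoxide reductases, which repair oxidized methionine, ran from 0.11 to 0.54, and in each of them the groups overlapped. The 6 genes of NADPH supply ran from −0.14 to 0.037. The 7 genes grouped here around NRF2, with Bach1, Cul3 and small Maf genes among them, ran from −0.086 to 0.081. These subgroups were formed after the values were seen.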

How the data were processed

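The authors discarded low-quality reads with Cutadapt, used HISAT2 for alignment to Ensembl v99 (mm10 in their processing notes) and StringTie and ballgown for expression. The deposited values are estimated counts per gene (expected counts in whole numbers, not normalized). The study labelled the second strand of its granulosa cell libraries with dUTP and treated it with UDG, as strand-specific libraries are made. The step to whole counts and the use of strand in counting are not stated. The files of single libraries held the same counts as the table of the series in 4 of 4 libraries. Symbols and GRCm38 coordinates came from GENCODE M21 (55144 of 55385 identifiers matched) and promoters from RefSeq.

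CPM values are counts scaled to the library total. Differences were tested in R 4.3.3 with edgeR 4.0.16 (quasi-likelihood test, two-sided, TMM, default filter on low counts, group alone, Benjamini-Hochberg over 19259 genes). The SE is the log2 fold change divided by the root of F. With 2 libraries against 2 only 3 splits exist, so no permutation test could pass 0.05. Alternatives used DESeq2 1.42.0, limma 3.58.1, other scalings, filters and left-out libraries. The procedure was tested on simulated data with changes larger than that of any member, so that test does not cover changes of the members' size. Values by library are given for the member of each role with the highest CPM and that with the smallest p, and for members with an unadjusted p under 0.05 or an absolute log2 fold change of at least 0.5. Members and lists were chosen with earlier results of these data known.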

Additional observations from a re-analysis of the deposited data

How the results depend on the processing

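No member passed an adjusted p of 0.05 in any of 14 alternatives, and 11 members, Gpx3, Gpx8, Srxn1, Prdx6, Gclm, Txn2, Cat, Gsr, Hmox1, Hmox2 and Nfe2l2, kept their direction in all of them. The share of all genes that kept direction was not computed. Of these 11, all but Hmox1 and Hmox2 were members whose groups did not overlap on CPM of the library total. With all 4 libraries, 328 values of members kept direction and call and 5 reversed. With library totals the reversed values were −0.013 for Keap1, −0.0048 for Gpx7 and −0.0059 for Glrx. For Gpx7 they were also −0.0032 in limma voom and −0.0045 with the replicate block. With a library left out 29 reversed. The lowest and highest values were −0.015 and 0.030 for Keap1, −0.33 and 0.15 for Sod2, −0.27 and 0.22 for Gpx1, −0.28 and 0.26 for Gpx7, −0.29 and 0.12 for Gclc, −0.022 and 0.25 for Gss, −0.25 and 0.23 for Txnrd3, −0.14 and 0.035 for Txnrd2, −0.33 and 0.27 for Prdx5, −0.17 and 0.17 for Glrx, −0.0053 and 0.26 for Sod3, −0.50 and 0.073 for Glrx2, −0.19 and 0.50 for Gpx4, −0.062 and 0.15 for Txn1, −0.079 and 0.19 for Prdx4, −0.23 and 0.019 for Txnrd1, −0.053 and 0.18 for Sod1, −0.17 and 0.078 for Nqo1, −0.080 and 0.26 for Prdx2, −0.10 and 0.24 for Prdx1, −0.025 and 0.20 for Prdx3 and −0.048 and 0.22 for Slc7a11. The members' median ran from −0.053 to 0.11, and was −0.0077 without Srxn1, an alternative chosen after the data were seen, as were same-strand overlaps and coding lengths. Over all genes, the count at an adjusted p of 0.05 was 0, but 10 with no filter, 65 in the DESeq2 Wald test, 59 in edgeR's exact test and 0 to 37 with a library left out (12 without Control 1, 37 without Control 2). By the study's criterion 208 genes passed, but 312 in edgeR's exact test, 345 with no filter, 87 with a filter at 1 CPM, 119 with counts divided by 4 and 341 to 512 with a library left out. Fewer genes were tested with the filter at 1 CPM (14490) and after division by 4 (15662). The cause was not tested elsewhere.

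The groups share replicate numbers, and the study's methods say that their cultures ran side by side, but no source used here ties a number to one experiment. Deviations of same-numbered libraries correlated across tested genes at a Pearson coefficient of 0.14, and of 0.31 in the 10491 whose average log2 CPM exceeded 3, as it did for all members but Nqo1. In edgeR's test with a replicate block 0 genes passed, 180 met the criterion, 580 had an unadjusted p under 0.05 against 383 without it. The block gave such a p to both Gpx3 (log2 fold change 0.65, unadjusted p of 0.00586) and Gpx8 (0.34, unadjusted p of 0.0238), each at an adjusted p of 1 by edgeR's quasi-likelihood test. Nqo1, the lowest member, rested on 52 to 74 read pairs, and its 95% interval ran from −0.64 to 0.57.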
